A study of Homo sapiens with 2 samples.

Results

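The genes described here encode 10 enzymes that make serine, pass its carbon into the folate pool or start proline synthesis: PHGDH, PSAT1, PSPH, SHMT1, SHMT2, MTHFD1, MTHFD1L, MTHFD2, ALDH1L2 and ALDH18A1. They were chosen by name, through their Entrez identifiers, and all 10 had a row among the 40392 Entrez genes of the deposited tables; 9 were listed above 0 and ALDH1L2 was listed at 0 in both libraries. The data are RNA sequencing of KYSE30, an established line of human esophageal squamous carcinoma cells. The RHCG library was made from stable transfectants that carry an expression vector for human RHCG, a Rhesus family membrane protein that transports ammonia, and the mock library from stable transfectants of pIRES2-EGFP. Both thus carry a stably introduced vector, and the labels do not say whether a line was 1 clone or a pool, or what promoter drives RHCG. There was 1 library per group, so no test between groups was possible and every difference compares these 2 libraries.

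Serine is made from a glycolytic intermediate, 3-phosphoglycerate, by PHGDH, PSAT1 and PSPH acting in turn. Serine hydroxymethyltransferases then move a carbon from serine onto tetrahydrofolate and release glycine, with SHMT2 in mitochondria and SHMT1 in the cytosol. In mitochondria MTHFD2 oxidises that carbon and MTHFD1L releases it as formate; in the cytosol the single protein MTHFD1 takes up formate and makes folate forms that feed purine and thymidylate synthesis. The transcription factor ATF4, whose RNA is translated more strongly when amino acids are short, is known to induce several of these genes.

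PSAT1, MTHFD2 and MTHFD1L had the highest ratios of RHCG over mock among these enzymes, and SHMT1 and MTHFD1 the lowest. Their promoters are shown for that reason, each spanning 250 bases before to 50 bases after the start of transcription, 5′ to 3′ on the gene's strand, from RefSeq on GRCh38.p14. That is not the build of the deposited tables, hg19. Of the 10 genes, 7 matched an entry in the RefSeq promoter table; PSPH, SHMT2 and ALDH1L2 did not. Capitals mark matches to the letters CCAAT (the core bound by NF-Y), CACGTG (the E-box core bound by MYC and related factors), TGATGNAA (the core of the C/EBP-ATF composite element) and TGACGT (the core of the cyclic AMP response element), each searched on both strands, so that CCAAT on the other strand reads ATTGG. The windows lie at chr9:78296875-78297174 (plus strand) for PSAT1, chr2:74198365-74198664 (plus strand) for MTHFD2, chr6:150866236-150866535 (plus strand) for MTHFD1L, chr17:18363501-18363800 (minus strand) for SHMT1 and chr14:64388103-64388402 (plus strand) for MTHFD1.
PSAT1: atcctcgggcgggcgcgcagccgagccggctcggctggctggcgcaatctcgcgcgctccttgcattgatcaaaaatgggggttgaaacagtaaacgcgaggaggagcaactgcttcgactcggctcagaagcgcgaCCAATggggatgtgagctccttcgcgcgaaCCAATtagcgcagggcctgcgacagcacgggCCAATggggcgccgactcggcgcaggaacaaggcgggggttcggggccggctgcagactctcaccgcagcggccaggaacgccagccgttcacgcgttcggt
MTHFD2: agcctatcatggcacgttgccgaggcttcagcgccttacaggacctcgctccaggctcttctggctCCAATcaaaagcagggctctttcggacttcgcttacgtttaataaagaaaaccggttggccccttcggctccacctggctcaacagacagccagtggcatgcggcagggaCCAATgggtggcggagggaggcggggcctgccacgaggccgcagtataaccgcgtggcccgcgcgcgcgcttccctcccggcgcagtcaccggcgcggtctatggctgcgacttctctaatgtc
MTHFD1L: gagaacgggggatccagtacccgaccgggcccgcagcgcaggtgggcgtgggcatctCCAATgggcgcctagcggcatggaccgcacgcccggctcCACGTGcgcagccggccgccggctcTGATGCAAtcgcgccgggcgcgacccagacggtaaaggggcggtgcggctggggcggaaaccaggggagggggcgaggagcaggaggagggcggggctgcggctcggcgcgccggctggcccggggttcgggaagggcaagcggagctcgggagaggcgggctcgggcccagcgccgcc
SHMT1: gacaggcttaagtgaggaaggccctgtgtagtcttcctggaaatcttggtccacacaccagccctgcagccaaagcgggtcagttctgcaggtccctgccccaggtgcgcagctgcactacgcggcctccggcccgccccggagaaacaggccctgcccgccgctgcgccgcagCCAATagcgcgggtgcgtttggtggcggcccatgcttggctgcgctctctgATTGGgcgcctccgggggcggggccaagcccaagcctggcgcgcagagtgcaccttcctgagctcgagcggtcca
MTHFD1: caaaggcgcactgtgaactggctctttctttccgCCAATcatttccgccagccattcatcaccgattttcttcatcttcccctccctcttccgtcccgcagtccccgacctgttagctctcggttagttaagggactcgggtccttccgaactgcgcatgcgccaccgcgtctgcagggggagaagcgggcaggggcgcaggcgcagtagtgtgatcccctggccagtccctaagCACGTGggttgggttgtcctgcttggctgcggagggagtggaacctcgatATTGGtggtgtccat

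The PSAT1 window held CCAAT at 113, 83 and 52 bases before the start, and the MTHFD2 window held it at 184 and 74 bases before. Neither held CACGTG, TGATGNAA or TGACGT. MTHFD1L alone of the 7 genes held TGATGNAA, as TGATGCAA at 129 bases before the start, with CACGTG at 154 and CCAAT at 193 bases before. RefSeq gives MTHFD1L several starts: the 3 overlapping windows at the head of the gene all held these letters and a window farther into the gene held none of them. The distances depend on the start: in the window that begins at 150866083, TGATGCAA lay 25 bases after the start and CACGTG 1 base before it. The last bases of that window were found in a GENCODE transcript of MTHFD1L. Those of the printed MTHFD1L and PSAT1 windows were not found in a GENCODE transcript of their gene, so the distances given for these windows rest on the RefSeq start alone. CCAAT was present in 6 of the 7 genes, among them the pair with the lowest ratios, SHMT1 and MTHFD1, so it did not separate the genes by their ratio. It is common, in 34.6% of all 35116 RefSeq promoter windows, against 7.3% for CACGTG, 8.0% for TGACGT and 3.6% for TGATGNAA. Counted by gene, as for the enzymes here, CCAAT was present in 39.7% of 27305 genes. The shares by gene were 8.8% for CACGTG, 9.6% for TGACGT and 4.5% for TGATGNAA. CACGTG was present in 3 of the 7 genes (MTHFD1, MTHFD1L and ALDH18A1), and TGACGT in ALDH18A1 alone; 0 matches in these windows overlapped each other. The letters were chosen after the sequences had been seen, and a match shows the letters, not a bound site.

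The transfected gene was at 413 RPKM in the RHCG library and listed at 0 in the mock library, as the labels place it. RPKM is reads per kilobase of transcript, scaled to library depth, so levels can be compared between genes as well as between libraries. The deposited values are scaled to about 22100000 reads in the RHCG library and about 18900000 reads in the mock library, and a transcript of 1 kb at 1 RPKM rests on about 22.1 reads in the RHCG library and 18.9 in the mock library. Intervals given with levels and ratios below are approximate 95% exact counting intervals from such estimated read numbers; they cover counting error only, not the spread between cultures or library preparations. Of 12 markers of squamous esophageal epithelium 11 were listed in each library, with a summed level of 510 RPKM in the RHCG library and 898 RPKM in the mock library, and KRT5 was listed at 0 in both. KRT13 (164 RPKM in the RHCG library, 407 RPKM in the mock library) and SFN (180 RPKM in the RHCG library, 254 RPKM in the mock library) make up most of that sum. KRT14, DSG3 and CDH1 had higher levels in the RHCG library, and all the other listed squamous markers had lower levels there. All 4 endothelial markers were at 0 in both libraries, as were 4 of 5 leukocyte markers and 5 of 7 fibroblast markers. The part of the squamous markers' difference in the results below was not tested. In bulk RNA, fewer cells that express a gene and less of its RNA per cell cannot be told apart.

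Over the 12857 genes whose mean reached 1 RPKM, the log2 ratio of RHCG over mock, taken with 1 RPKM added to each value, was 1 or more for 2.74% (called higher) and −1 or less for 3.30% (called lower). Of the 9 measured enzyme genes 2 were called higher, PSAT1 and MTHFD2, and 0 were called lower. Their median log2 ratio was 0.04, beside −0.01 over all genes measured, with 5 above 0 and 4 below. The enzymes were thus spread on both sides: their log2 ratios ran from −0.80 to 1.37, with an SD over the 9 genes of 0.80, beside 0.54 over all genes measured. In 4 of the 9 the libraries were within 1.2-fold of each other, as were 43.0% of all genes.

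**Figure D1:**
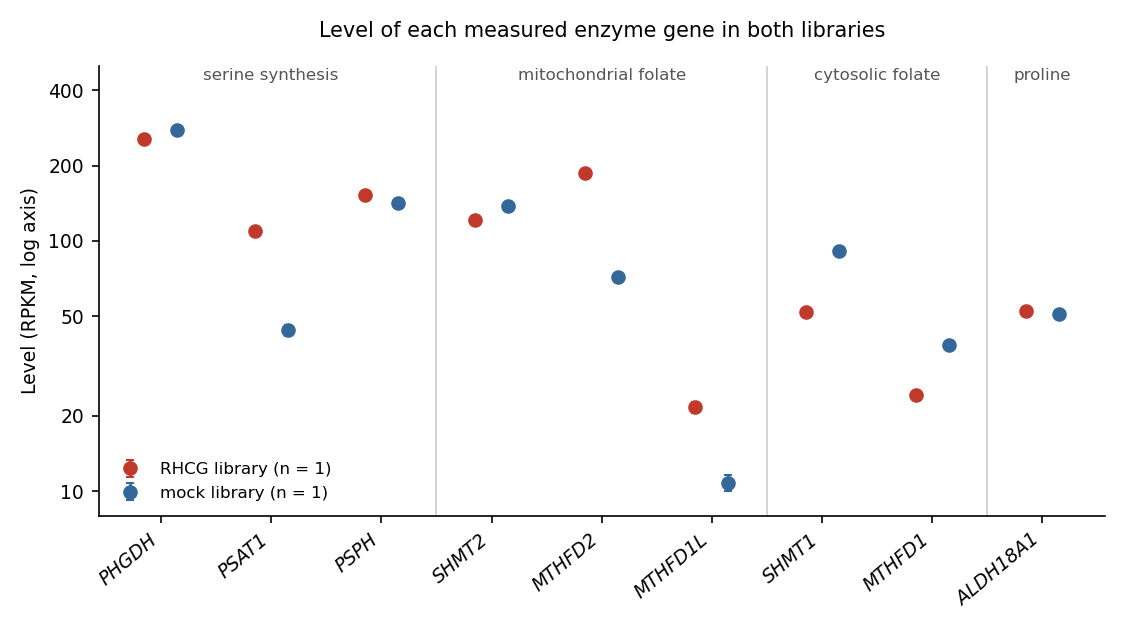
Level in RPKM (log axis) of the 9 enzyme genes listed above 0, with the RHCG library left of the mock library for each gene; bars, mostly hidden by the points, are approximate 95% counting intervals and there is 1 library per group. PSAT1 (110 RPKM in the RHCG library, 44.0 in the mock library), MTHFD2 and MTHFD1L stand higher in the RHCG library, SHMT1 and MTHFD1 stand lower, and the other genes lie close together.

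Within serine synthesis only the middle enzyme differed beyond 2-fold. PSAT1, the aminotransferase that gives phosphoserine its nitrogen from glutamate, was at 110 RPKM in the RHCG library and 44.0 RPKM in the mock library. This is a 2.50-fold difference and a log2 ratio of 1.30, on about 4368 reads in the RHCG library and 1500 in the mock library, and the counting interval of the plain log2 ratio ran from 1.24 to 1.41. PSAT1 ranked 134 from the top among the 12857 genes by log2 ratio. PHGDH, the dehydrogenase of the first step, was at 256 RPKM in the RHCG library and 277 RPKM in the mock library, a log2 ratio of −0.11. PSPH, the phosphatase of the last step, was at 153 RPKM in the RHCG library and 141 RPKM in the mock library, a log2 ratio of 0.11. The summed level of the 3 genes was 519 RPKM in the RHCG library and 462 RPKM in the mock library. PSAT1 made up 21.2% of that sum in the RHCG library and 9.53% in the mock library, while PHGDH made up 49.3% in the RHCG library and 59.9% in the mock library. PSAT1 was the least abundant of the 3 in both libraries, at 0.43 of the PHGDH level in the RHCG library and 0.16 of it in the mock library.

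The mitochondrial folate enzymes did not move as a block. MTHFD2, the NAD-dependent dehydrogenase and cyclohydrolase, was at 187 RPKM in the RHCG library and 71.7 RPKM in the mock library. This is a 2.61-fold difference and a log2 ratio of 1.37, the highest of the enzymes described, on about 7708 reads in the RHCG library and 2532 in the mock library, with a counting interval of the plain log2 ratio from 1.32 to 1.45. It ranked 112 from the top among all genes. MTHFD1L, which releases formate, was at 21.6 RPKM in the RHCG library and 10.8 RPKM in the mock library. Its plain ratio was 2.001-fold, and its log2 ratio was 0.94 with 1 RPKM added, just under the size of a call, with an interval of the plain log2 ratio from 0.87 to 1.13. SHMT2, which supplies both with carbon from serine, was at 121 RPKM in the RHCG library and 138 RPKM in the mock library, a log2 ratio of −0.19. ALDH1L2, the mitochondrial formyltetrahydrofolate dehydrogenase, was listed at 0 in both libraries, and its cytosolic counterpart ALDH1L1 likewise. A 0 in these tables may stand for 1 RPKM or less, for no reads or for a gene that was not counted: the broadly expressed genes HSPH1 and GLUL were at 0 in both libraries too.

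The cytosolic folate enzymes were both lower in the RHCG library, by less than 2-fold. SHMT1 was at 52.0 RPKM in the RHCG library and 91.0 RPKM in the mock library, a log2 ratio of −0.80 with an interval of the plain log2 ratio from −0.88 to −0.73. It ranked 792 from the bottom among 12857 genes. MTHFD1, the trifunctional enzyme, was at 24.2 RPKM in the RHCG library and 38.5 RPKM in the mock library, a log2 ratio of −0.65 with an interval of the plain log2 ratio from −0.75 to −0.60, and ranked 1214 from the bottom. At 1.5-fold as the size of a call both count as lower, against 11.5% of all genes, and MTHFD1L joins PSAT1 and MTHFD2 as higher, against 11.3% of all genes. The summed level of SHMT1 and MTHFD1 was 76.1 RPKM in the RHCG library and 129 RPKM in the mock library. That of SHMT2, MTHFD2 and MTHFD1L was 330 RPKM in the RHCG library and 221 RPKM in the mock library, and the gene that led this sum was MTHFD2 (56.8%) in the RHCG library and SHMT2 (62.7%) in the mock library.

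**Figure D2:**
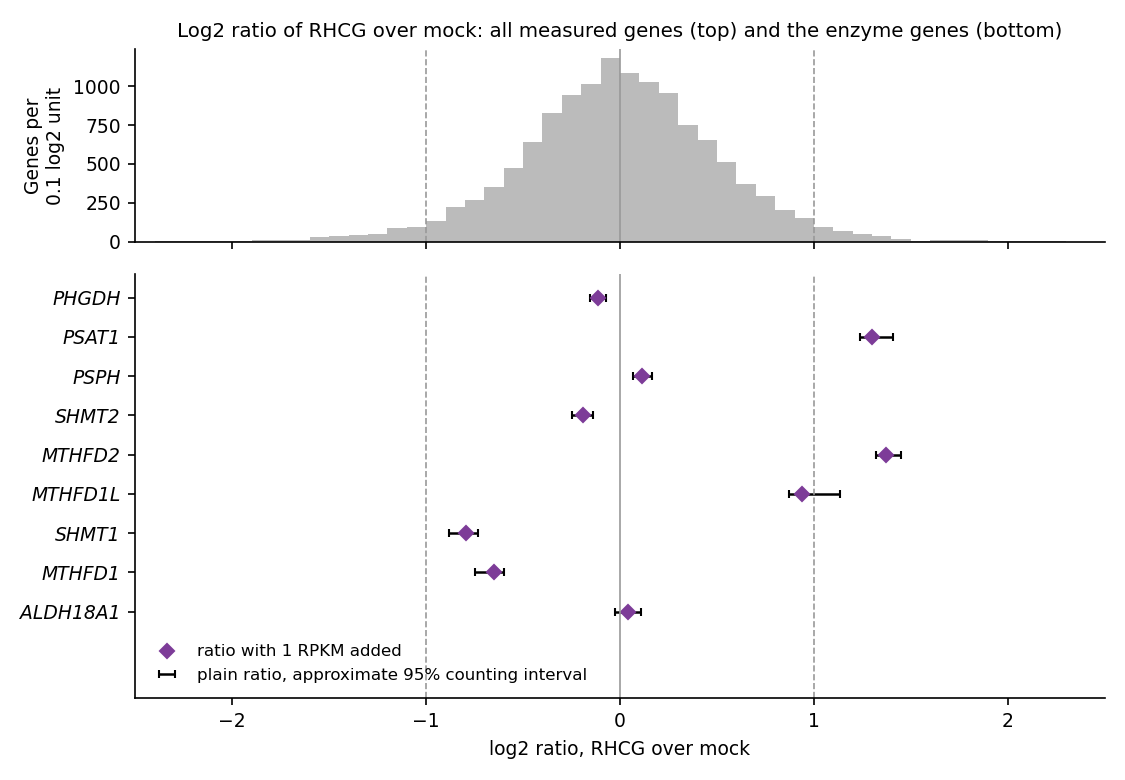
Log2 ratio of RHCG over mock for all 12857 measured genes (top, number of genes per bin; genes beyond the ends of the axis are not drawn) and for the 9 enzyme genes (bottom). Diamonds are ratios with 1 RPKM added, bars are approximate 95% counting intervals of the plain ratio, and dashed lines mark 2-fold; PSAT1 (1.30) and MTHFD2 (1.37) lie beyond the upper line, MTHFD1L (0.94) just inside it, and SHMT1 (−0.80) and MTHFD1 (−0.65) to the left of 0.

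Enzymes of matching function can be compared within each library, where the scaling between libraries has no part. The level of MTHFD2 over that of MTHFD1 was 7.75 in the RHCG library and 1.86 in the mock library. MTHFD1L over MTHFD1 was 0.90 in the RHCG library and 0.28 in the mock library. SHMT2 over SHMT1 was 2.33 in the RHCG library and 1.52 in the mock library. The mitochondrial gene thus stood higher against its cytosolic counterpart in the RHCG library in all 3 pairs, by 4.17-fold, 3.19-fold and 1.53-fold. These pairs share genes, so they are not separate observations. In the SHMT pair the difference came from SHMT1 (1.75-fold lower in the RHCG library). SHMT2 was itself slightly lower there (log2 ratio −0.19), which made the difference smaller. MTHFD2L, a paralogue of MTHFD2 that also works in mitochondria, was at 2.44 RPKM in the RHCG library and 3.63 RPKM in the mock library, a log2 ratio of −0.43, so MTHFD2 exceeded it 76.7-fold in the RHCG library and 19.8-fold in the mock library.

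**Figure D3:**
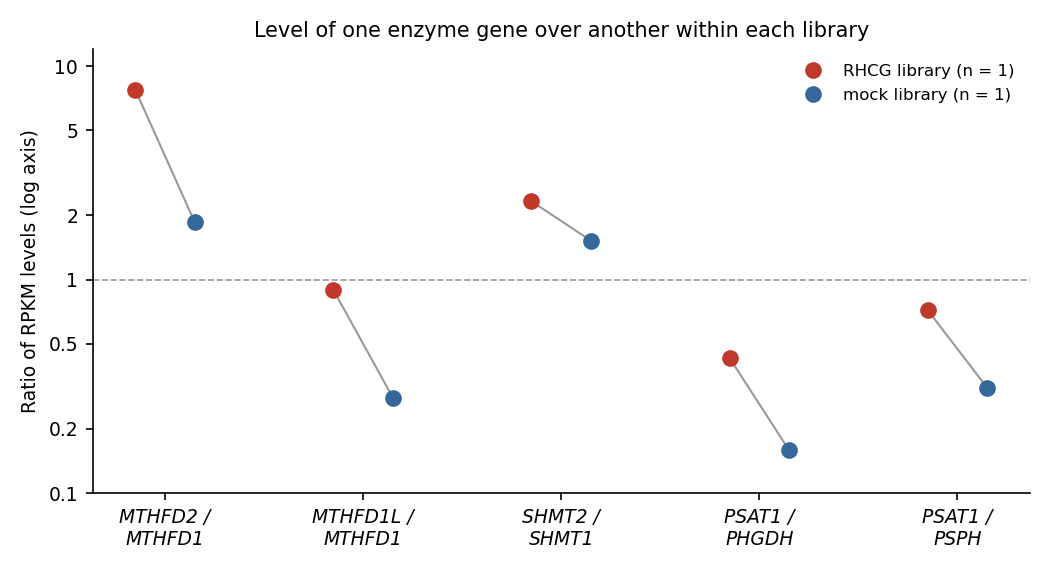
Level of one enzyme gene divided by that of another in the same library (log axis), with the RHCG library left of the mock library and 1 library per group. The first 3 pairs set a mitochondrial folate enzyme over its cytosolic counterpart, and the other 2 set PSAT1 over the other serine synthesis enzymes; every pair is higher in the RHCG library, most widely MTHFD2 over MTHFD1, at 7.75 in the RHCG library and 1.86 in the mock library.

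The order of levels differed between the libraries. In the RHCG library PHGDH was the most abundant, followed by MTHFD2, PSPH, SHMT2, PSAT1, ALDH18A1, SHMT1, MTHFD1 and MTHFD1L. Among neighbours in that order only ALDH18A1 (52.7 RPKM) and SHMT1 (52.0 RPKM, interval 49.9 to 54.1) had overlapping counting intervals. In the mock library PHGDH was followed by PSPH, SHMT2, SHMT1, MTHFD2, ALDH18A1, PSAT1, MTHFD1 and MTHFD1L, and PSPH (interval 138 to 145 RPKM) and SHMT2 (135 to 142 RPKM) overlapped. Among 11433 measured protein-coding genes, MTHFD2 ranked 223 by level in the RHCG library and 896 in the mock library, and PSAT1 ranked 486 in the RHCG library and 1611 in the mock library. PHGDH ranked 135 in the RHCG library and 158 in the mock library.

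Proline synthesis showed the same mixture of steps. ALDH18A1, which makes the glutamate semialdehyde that becomes proline, was at 52.7 RPKM in the RHCG library and 51.2 RPKM in the mock library, a log2 ratio of 0.04 whose interval, −0.03 to 0.11, included 0. PYCR1, the mitochondrial reductase of the last step, was at 295 RPKM in the RHCG library and 133 RPKM in the mock library, a log2 ratio of 1.14. PYCR1 was the only called gene of the 8 measured on the proline and ornithine list, beside 2.74% of all genes called higher. The list's median was 0.29.

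The genes around these enzymes were described through 8 lists, in which 15 of 93 measured genes were called higher (16.1%, beside 2.74% of all genes) and 6 lower (6.5%, beside 3.30%). Of the 15 higher genes 10 came from the ATF4 list described below. The other 7 lists gave 5 of 74 higher (6.8%) and 6 of 74 lower (8.1%). All lists were drawn up with earlier results of these data known. On the list of folate enzymes and carriers 1 of 14 was higher and 2 were lower. TYMS, thymidylate synthase, which uses a folate carbon, was at 18.96 RPKM in the RHCG library and 79.9 RPKM in the mock library (log2 ratio −2.02); it partly overlaps the antisense gene ENOSF1, and the counting is not known to use strand. MTRR, which reactivates methionine synthase, was at 12.2 RPKM in the RHCG library and 5.42 RPKM in the mock library (1.04). Its ratio was 0.68, no longer a call, with the median of its 51 neighbours on chromosome 5 removed.

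Among all measured genes 2.74% were called higher and 3.30% lower. Of 12 purine synthesis genes 0 were called, with a median of 0.00 and a range from −0.58 to 0.44, and the most abundant were IMPDH2 (153 RPKM in the RHCG library, 165 RPKM in the mock library) and ATIC (88.0 RPKM in the RHCG library, 69.4 RPKM in the mock library). Of 11 genes that use glycine or serine 0 were called, with a median of 0.12; PTDSS1, a phosphatidylserine synthase, was at 72.9 RPKM in the RHCG library and 67.1 RPKM in the mock library, and SPTLC1, a subunit of serine palmitoyltransferase, at 39.0 RPKM in the RHCG library and 33.1 RPKM in the mock library. GLDC, the decarboxylase of the glycine cleavage system, was listed at 0 in both libraries. In the methionine cycle and transsulfuration list 1 of 8 genes was higher. CBS, which joins serine to homocysteine, was at 115 RPKM in the RHCG library and 56.9 RPKM in the mock library; its log2 ratio of 1.00 lies at the size of a call and fell below it with median-of-ratios or trimmed mean scaling. CTH, the next enzyme, was at 1.98 RPKM in the RHCG library and listed at 0 in the mock library.

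Among the serine and glycine carriers 2 of 9 were higher and 0 lower, beside 2.74% higher and 3.30% lower among all genes. SLC1A4, a neutral amino acid transporter that carries serine, was at 21.5 RPKM in the RHCG library and 6.36 RPKM in the mock library, a log2 ratio of 1.61. SLC6A9, the glycine transporter GlyT1, was at 18.7 RPKM in the RHCG library and 8.29 RPKM in the mock library (1.09). SFXN1, which carries serine into mitochondria, was at 22.8 RPKM in the RHCG library and 37.5 RPKM in the mock library (−0.69, within 2-fold). The list's median was 0.18.

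**Figure D4:**
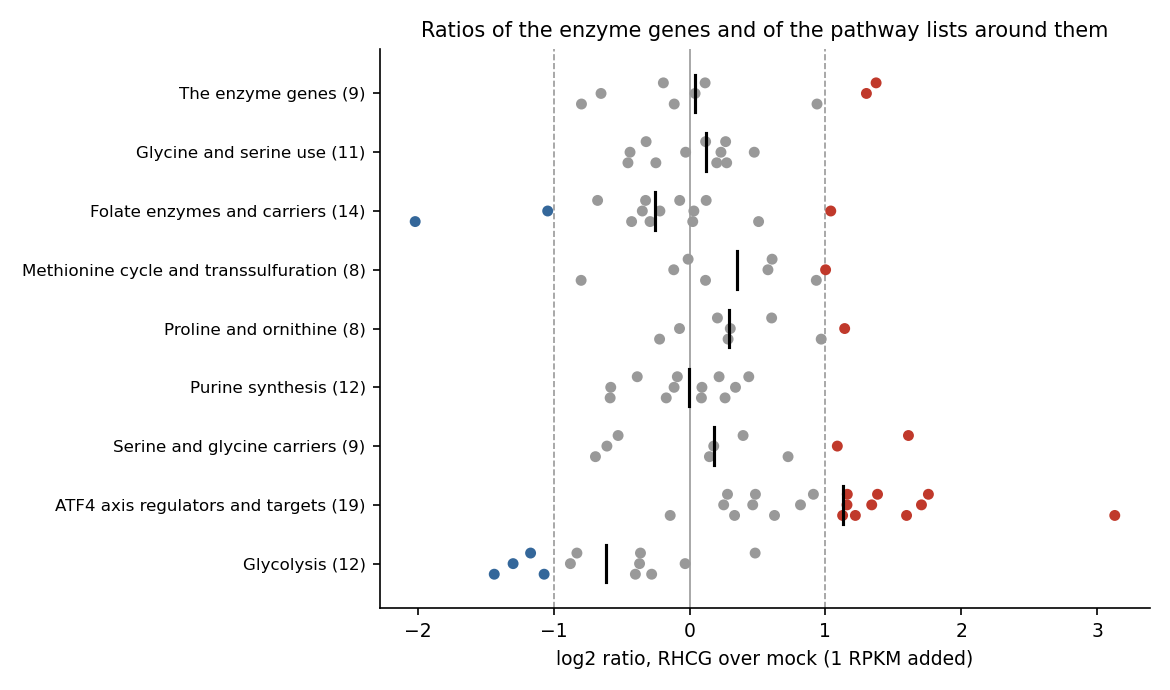
Log2 ratio of RHCG over mock, with 1 RPKM added, of each measured gene of the enzyme group and of 8 lists around it (number measured in brackets). Red points are called higher, blue points lower and grey points lie within 2-fold, and black bars are medians. The list of the ATF4 axis has 10 of 19 genes to the right of the upper line, beside 2.74% of all genes. Glycolysis has 4 of 12 to the left of the lower line, beside 3.30% of all genes.

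The list of ATF4 regulators and targets held most of the higher calls, with 10 of 19 genes higher, 0 lower and a median of 1.13. Of all genes 2.74% were called higher and 3.30% lower. TRIB3, an ATF4-induced pseudokinase, had the highest ratio, 3.13. CEBPG, a partner of ATF4 on composite elements, was at 73.1 RPKM in the RHCG library and 20.9 RPKM in the mock library (1.76), SESN2 had a ratio of 1.71, ASNS, asparagine synthetase, 1.60, SLC7A11 1.38, CEBPB 1.34, PPP1R15A 1.22, DDIT4 1.16, SLC7A5, a large neutral amino acid transporter, 1.16, and CHAC1 1.13. The ATF4 transcript itself was within 2-fold, at 228 RPKM in the RHCG library and 165 RPKM in the mock library (0.46). Since the list was drawn up with earlier results known, its direction is a description and not independent evidence.

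Glycolysis supplies the substrate of the pathway. Calls were 4 lower and 0 higher among 12 genes, beside 3.30% lower and 2.74% higher among all genes, and the list's median was −0.61. The 4 were ENO1 (−1.44), PFKM (−1.30), PGK1 (−1.17) and PFKP (−1.07). PGK1 makes 3-phosphoglycerate, the substrate PHGDH withdraws, and was at 70.6 RPKM in the RHCG library and 160 RPKM in the mock library; ENO1 and PGAM1 act after that point, and without them 3 of 10 were lower and the median was −0.38. HK2, a hexokinase, lay above 0, at 0.48. PFKM (−0.94) and PFKP (−0.999, just short of a call) were no longer called with the neighbour median removed.

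The 10 enzyme genes lie on 9 chromosomes, SHMT2 and ALDH1L2 sharing chromosome 12, so the called pair, PSAT1 and MTHFD2, lie on different chromosomes. The median log2 ratio of the 51 nearest measured protein-coding genes was 0.08 around PSAT1 (chromosome 9), 0.10 around MTHFD2 (chromosome 2), 0.18 around MTHFD1L (chromosome 6) and −0.48 around SHMT2 (chromosome 12). With it removed, PSAT1 was at 1.22, MTHFD2 at 1.28, MTHFD1L at 0.75, SHMT1 at −0.79 and MTHFD1 at −0.59, while SHMT2 was at 0.29, above 0. All 11 annotated pseudogenes of these enzymes that have a row, such as PSPHP1 and MTHFD2P1, were listed at 0 in both libraries; whether reads were shared with them is not known.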

How the data were processed

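Total RNA from stable transfectants was depleted of ribosomal RNA and made into barcoded Ion Torrent libraries, per the labels' protocols. The authors deposited 1 table per library headed RPKM, whose values are log2 of RPKM with no value below 0; the submitters' processing notes name hg19 and bedtools 2.25.0, and for the aligner and counter the sources used here give no name. The log2 scale and the depth were read from small RNA genes, where part of the unlogged values times length piled up on whole multiples of 1 constant per library: 37.6% of them in the RHCG library and 24.9% in the mock library came within 0.005 reads of being whole, and the others did not. Counts could therefore not be recovered, and depths, read numbers and intervals are estimates that rest on that part.

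The 40448 rows were summed to 40392 Entrez genes, with names from RefSeq (38047 matched). Genes listed at 0 were set to 1 RPKM, and genes at 0 in both libraries or with a mean under 1 RPKM were not measured. Because of that setting, the mean removed no gene listed above 0 in at least 1 library. Ratios are log2((RHCG + 1)/(mock + 1)), with 2-fold as the size of a call and no p-value, since there was 1 library per group. Read numbers for the 95% Clopper-Pearson and Poisson intervals used the median GENCODE transcript length and are approximate. The enzymes and lists were chosen with earlier results of these data known. Named genes were the 10 enzymes, RHCG, every called list gene or, where a list had 0 calls, its most abundant 2, and members' pseudogenes, and 1 gene that this rule names is not reported here; MTHFD2L, SFXN1, CTH, ALDH1L1, GLDC, ATF4, PGAM1, HSPH1, GLUL, KRT5, KRT13, SFN, KRT14, DSG3, CDH1 and HK2 were added after their values were seen. Alternatives were 0.1 RPKM added, no filter, a mean of at least 5 RPKM, the row with the highest total, median-of-ratios and trimmed mean scaling, genes listed at 0 set to 0 RPKM, the median of 51 neighbours removed, and 1.5-fold. Software was scipy 1.17.1, numpy 2.4.6, matplotlib 3.10.9 and pandas 2.3.3 under Python 3.11.15.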

Additional observations from a re-analysis of the deposited data

How the results depend on the processing

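No paired analysis was possible because each group had a single library, which also left none to omit. PSAT1 and MTHFD2 were the enzymes called higher, and 0 were lower, under each of the 8 alternatives that keep 2-fold; their log2 ratios ran from 1.22 to 1.32 and from 1.28 to 1.38. With 1.5-fold as the size of a call, 2 enzymes were lower (SHMT1 and MTHFD1), 1447 of all genes were higher and 1481 lower, and of the list genes 23 were higher and 12 lower, by construction. With 0.1 RPKM added, all genes called were 533 higher and 673 lower, against 352 and 424. Both scalings moved all ratios by under 0.01. Single enzymes and called list genes gave values under the alternatives that keep 2-fold. Of these values 224 stayed within their counting error and 15 went beyond it, all with the neighbour median removed, and 0 called ones turned their sign. The 224 include the values under the alternatives named above, which left each ratio they gave unchanged. SHMT2 (0.29) and PSPH (−0.03), neither of them called, changed sign with the neighbour median removed.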
